A study of Mus musculus with 8 samples.

Results

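The red cell membrane skeleton genes described here are 8 genes: Sptb, Ank1, Slc4a1, Epb42, Epb41, Dmtn, Add2 and Tmod1. The genes were listed by name and not by a cut on their values, but with earlier results of these data known. They encode the erythroid spectrin beta chain, ankyrin, band 3, the proteins of bands 4.2 and 4.1, dematin, beta adducin and tropomodulin. Each was found in the expression table after its transcripts had been summed to genes, so the set holds 8 of 35944 genes. The filter on low counts left 10361 genes for testing, and 8 of the 8 members passed it. The table lists 76 transcripts of the 8 genes.

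The red cell skeleton is a protein net under the plasma membrane that lets the cell deform in capillaries and return to its shape. Spectrin tetramers form the strands of the net, ankyrin ties the strands to band 3 in the membrane, and short actin filaments join the strands at their ends through protein 4.1, adducin, dematin and tropomodulin. Inherited loss of these proteins is known to cause fragile red cells, and in blood the transcripts come largely from reticulocytes, the young red cells that still hold RNA.

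RNA was sequenced from mouse buffy coats, the layer of white cells and platelets that settles above the red cells when blood is spun. One group had been exposed to PM2.5, fine airborne particulate matter, and the other had been given PBS, a saline control, both for 24 weeks. Each group held 4 libraries, and the labels number them. They are called PM2.5 replicates 9, 17, 18, 21 here, and, on the control side, PBS replicates 4, 10, 12, 16. The sources used here do not give strain, sex, age, route or particle dose, and neither group is labelled with a genetic change. Whether the libraries of a group stem from separate mice is not stated in the labels, so that the p-values speak of the spread among these samples alone, which may be technical.

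The libraries held 72042685 to 89003605 expected counts, of which the 4 haemoglobin genes (Hba-a1 and Hba-a2 of the alpha chain, Hbb-bs and Hbb-bt of the beta chain) took 82.4% to 88.6%. Haemoglobin transcripts thus made up most of every library, although a buffy coat is a white cell fraction. All other genes shared 9615114 to 12714423 counts per library, and the 8 members took 3.48% to 4.29% of those. PM2.5 replicates 17 and 18 stood apart from the other libraries in neuronal genes: Camk2a, a kinase of neurons, was at 1.43 and 1.79 CPM there and at 0.0373 or less in the other libraries (it was singled out after its values were seen). Those libraries also had the lowest TMM factors, 0.644 and 0.638, against 0.832 to 1.52 in the others. TMM is a scaling that sets the bulk of genes level between libraries, and a low factor raises every TMM-scaled CPM (counts per 1000000) of a library. Results are therefore also given without these 2 libraries and under other scalings.

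Per transcript length, the members spanned more than 2 orders of magnitude, and their order was nearly the same in every library. On the FPKM scale (fragments per kilobase of transcript, scaled to the library), Epb41 was the highest with a mean of 1082 over 8 libraries and a range of 895 to 1524. Slc4a1 came next with a mean FPKM of 294, followed by Epb42 with 40.7, and the ranges of Epb41, Slc4a1, Epb42 and Ank1 did not overlap between neighbours in that order. The lower 5 genes lay closer together, with mean FPKM levels of 15.5 for Ank1, 11.5 for Sptb, 9.23 for Tmod1, 5.09 for Add2 and 3.54 for Dmtn. Neighbours among these 5 overlapped in range, but within libraries Ank1 exceeded Sptb, Tmod1 exceeded Add2 and Add2 exceeded Dmtn in 8 of 8, while Sptb exceeded Tmod1 in 6 of 8. By counts, Epb41 supplied 63.1% to 72.3% of the members' reads and Slc4a1 21% to 28.7%.

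**Figure D1:**
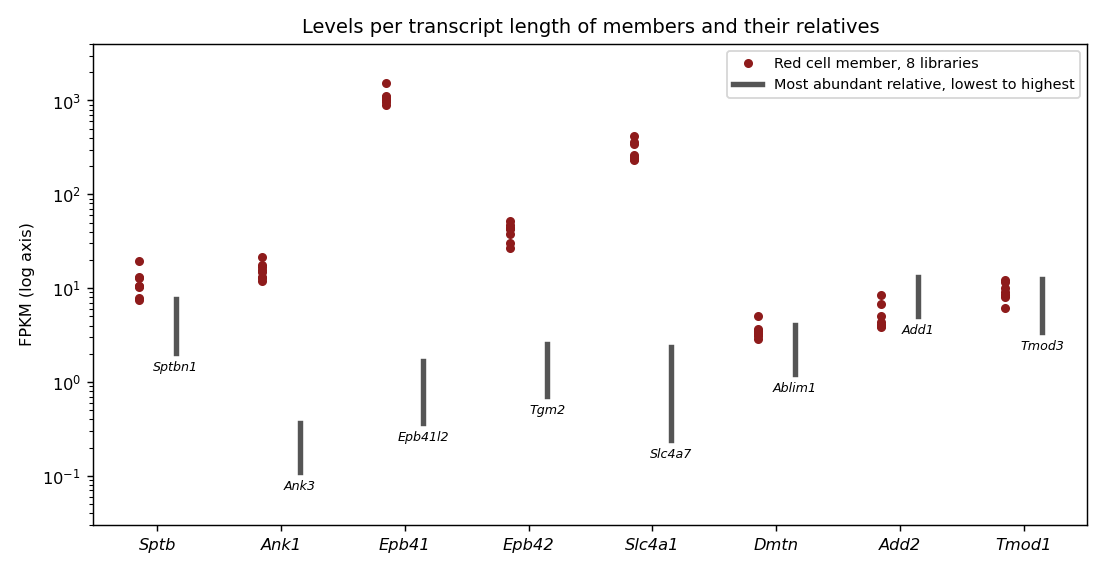
FPKM on a log axis for each of the 8 genes (points, 8 libraries) beside the lowest-to-highest range of its most abundant relative (grey bars). Epb41 (mean 1082) and Slc4a1 (mean 294) stand far above their relatives, whereas Add2 lies below Add1 in every library and Dmtn and Tmod1 overlap theirs.

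The comparison of PM2.5 with PBS asked whether transcripts of these genes differed after exposure. With edgeR's quasi-likelihood test and Benjamini-Hochberg adjustment over all genes tested, 0 of the 8 members passed an adjusted p of 0.05, where 1.6% of all genes passed (48 higher, 0.463%, and 118 lower, 1.14%). At an unadjusted p under 0.05 there were 3 members, Tmod1, Epb42 and Ank1, against 18% of all genes, and all 3 had positive values, against 8.79% of all genes with that sign and p. DESeq2 called 1 member, Tmod1, where 2.02% of all genes were called. Limma on log2(FPKM + 1) called 0 members, but it called 0 of all 3658 genes it tested. All 8 fitted log2 fold changes were positive, as were those of 54.4% of all genes, and the members' median was 0.36 against 0.04 for all genes tested. In none of the 8 genes did the groups separate fully in CPM, where 9.66% of all genes did. In bulk RNA, fewer cells of a type and less RNA per cell cannot be told apart.

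**Figure D2:**
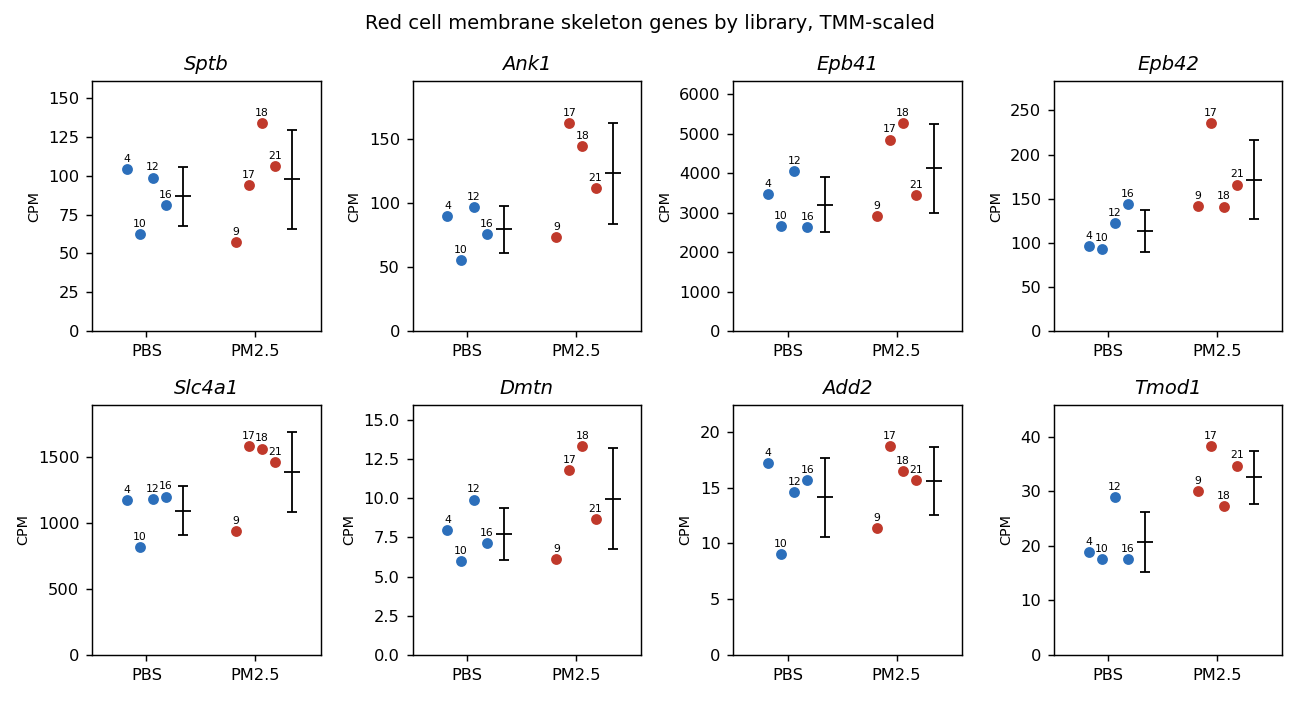
TMM-scaled CPM of each member in each library, labelled by replicate number, with the group mean and SD (n = 4 per group). The groups overlap in all 8 panels, and the highest point of each panel is PM2.5 replicate 17 or 18.

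Sptb encodes the beta chain of erythroid spectrin, which carries the binding site for ankyrin (chromosome 12, 76580488 to 76710547, minus strand, GRCm38). In TMM-scaled CPM it was at 104, 62.6, 98.7 and 81.1 in PBS replicates 4, 10, 12 and 16. The exposed libraries, PM2.5 replicates 9, 17, 18 and 21, were at 57.1, 93.7, 134 and 106. PM2.5 replicate 9 was the lowest of the 8 libraries and PM2.5 replicate 18 the highest, so the exposed group enclosed the control group. The means were 97.6 ± 31.8 CPM with PM2.5 and 86.6 ± 18.8 under PBS (SD, n = 4 each). The log2 fold change was 0.17 (SE 0.252, edgeR adjusted p = 0.743), and it was -0.02 without PM2.5 replicate 18 and -0.09 without PM2.5 replicates 17 and 18. Plekhg3, on the opposite strand, overlaps the Sptb locus and had counts equal to 1.84% of those of Sptb.

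The Sptb reads were divided between a pair of transcripts that differ at the C-terminal end of the coding sequence. Sptb-202, with 6411 coding bases, took 84.7% of Sptb counts on average (82.8% to 86.6%), and Sptb-201, with 6987, took 15.3% (13.4% to 17.2%). After the last base they share, the short form runs 66 coding bases to its stop codon and the long form 642. The sequences below show where the forms part. The lower-case bases are shared, the capitals are the bases that follow in each form, and the last capitals of Sptb-202 are its stop codon (capitals at chr12:76597657-76597725 and chr12:76587522-76587590, GRCm38, minus strand).
Sptb-202: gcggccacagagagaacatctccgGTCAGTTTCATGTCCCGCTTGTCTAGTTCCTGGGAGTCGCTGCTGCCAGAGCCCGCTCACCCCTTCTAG
Sptb-201: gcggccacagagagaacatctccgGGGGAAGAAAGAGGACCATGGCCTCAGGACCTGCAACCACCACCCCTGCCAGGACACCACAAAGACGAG
The share of the long form was 15.4%, 15.4%, 14.3% and 15.9% in PBS replicates 4, 10, 12 and 16. It was 17.2%, 14.9%, 16.3% and 13.4% in PM2.5 replicates 9, 17, 18 and 21. The PM2.5 libraries held both the highest and the lowest share, and the choice of end did not differ beyond the spread between libraries (usage adjusted p = 1, edgeR).

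Ank1 encodes ankyrin, the adaptor that binds spectrin on one side and band 3 on the other (chromosome 8, 22974844 to 23150497, plus strand). Its TMM-scaled CPM was 89.9, 55.7, 97 and 75.8 in PBS replicates 4, 10, 12 and 16. With PM2.5 it was 73.8, 163, 145 and 112 in replicates 9, 17, 18 and 21. PM2.5 replicates 17, 18 and 21 lay above every PBS library, and PM2.5 replicate 9 lay among the PBS values. The means were 123 ± 39.3 CPM with PM2.5 and 79.6 ± 18.2 under PBS (SD, n = 4 each). The log2 fold change was 0.63 (SE 0.255, edgeR adjusted p = 0.214), and it was 0.22 without PM2.5 replicates 17 and 18. Its FPKM means were equal in the groups to the printed precision, 15.5 ± 2.03 with PM2.5 and 15.5 ± 4.3 under PBS (SD, n = 4 each).

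Several long Ank1 transcripts shared the reads, and each of the leading ones begins in the interior of the locus and not at its first annotated base. Ank1-213, which starts at 23035231, took 40.7% of Ank1 counts on average, Ank1-206, from 23035099, took 31.8%, and Ank1-205, from 23035128, took 16.7%. Ank1-201 and Ank1-208, short transcripts at the 3′ end of the locus with 468 and 465 coding bases, were listed at 0 in every library. Ank1-205 ranged from 7.83% of Ank1 counts in PM2.5 replicate 9 to 21.3% in PBS replicate 16, and the groups overlapped for all 3 leading forms.

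Slc4a1 encodes band 3, the chloride and bicarbonate exchanger that anchors the net in the membrane (chromosome 11, 102348824 to 102366203, minus strand). In PBS replicates 4, 10, 12 and 16 its TMM-scaled CPM was 1174, 819, 1182 and 1200. In PM2.5 replicates 9, 17, 18 and 21 it was 940, 1581, 1564 and 1462. The 3 higher PM2.5 libraries lay above every PBS library, and PM2.5 replicate 9 lay below 3 of the 4. The means were 1387 ± 302 CPM with PM2.5 and 1094 ± 184 under PBS (SD, n = 4 each), a log2 fold change of 0.34 (SE 0.263, edgeR adjusted p = 0.497). It was 0.19 without PBS replicate 10 and 0.13 without PM2.5 replicates 17 and 18. Slc4a1-201, with 2787 coding bases, held 100% of Slc4a1 counts to 3 digits in each library, so the gene showed no isoform choice to compare.

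Epb42 encodes protein 4.2, a relative of the transglutaminases without enzyme activity that binds band 3 and ankyrin (chromosome 2, 121017891 to 121037072, minus strand). Its TMM-scaled CPM was 96.2, 93.5, 122 and 144 in PBS replicates 4, 10, 12 and 16. It was 142, 236, 141 and 166 in PM2.5 replicates 9, 17, 18 and 21. Every PM2.5 library lay above 3 of the 4 PBS libraries, PBS replicate 16 closed the gap, and PM2.5 replicate 17 stood highest. The means were 171 ± 44.6 CPM with PM2.5 and 114 ± 23.7 under PBS (SD, n = 4 each). The log2 fold change was 0.59 (SE 0.234, edgeR adjusted p = 0.209), and it was 0.44 without PM2.5 replicates 17 and 18.

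Epb42-202, with 2073 coding bases, took 90.2% of Epb42 counts on average (86.5% to 94%). Epb42-203, annotated as a processed transcript with no coding sequence, took 7.7%. Its share was 10.4%, 10.6%, 9.13% and 6.71% in PBS replicates 4, 10, 12 and 16 and 5.19%, 6.11%, 6.73% and 6.7% in PM2.5 replicates 9, 17, 18 and 21. PBS replicate 16 lay just inside the PM2.5 range, so the groups overlapped. Usage of Epb42 transcripts did not pass (adjusted p = 1, edgeR).

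Epb41 encodes protein 4.1, which clamps spectrin to actin at the junctions of the net (chromosome 4, 131923413 to 132075321, minus strand). Its TMM-scaled CPM was 3481, 2656, 4062 and 2639 in PBS replicates 4, 10, 12 and 16. The values under PM2.5 were 2920, 4854, 5284 and 3441 in replicates 9, 17, 18 and 21. PM2.5 replicates 17 and 18 lay above every PBS library, and the other PM2.5 libraries lay within the PBS range. The means were 4125 ± 1125 CPM with PM2.5 and 3210 ± 691 under PBS (SD, n = 4 each). Its log2 fold change was 0.36 (SE 0.297, edgeR adjusted p = 0.526), and it was -0.01 without PM2.5 replicates 17 and 18.

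The known erythroid feature of Epb41 is a small exon that is skipped in most tissues and spliced in as red cells mature, and it encodes part of the domain that binds spectrin and actin. Among annotated exons, the one held by Epb41-212 and absent from Epb41-215 is 63 bases long, or 21 codons, at chr4:131962924-131962986 (GRCm38, minus strand). It is printed with the 15 bases that precede it in Epb41-212 in lower case and the exon itself in capitals, because the choice of this exon divides the reads of the most abundant member.
Epb41 exon: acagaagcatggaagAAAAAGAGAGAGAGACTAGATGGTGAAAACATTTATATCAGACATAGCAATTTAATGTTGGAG
Of the counts assigned to transcripts that span this exon, those that hold it made up 58.1%, 55.8%, 56.7% and 56.9% in PBS replicates 4, 10, 12 and 16. The share was 60.1%, 58%, 58.2% and 57% in PM2.5 replicates 9, 17, 18 and 21. The means were 58.3% ± 1.31 and 56.9% ± 0.959 (SD, n = 4 each), and the groups overlapped, PBS replicate 4 lying above PM2.5 replicates 17 and 21. The inclusion share rests on 9 annotated transcripts with the exon and 6 without it, and on how the counting tool shared reads between them.

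Most Epb41 reads went to one coding and one non-coding model. Epb41-212, with 2001 coding bases, took 50.4% of Epb41 counts on average (47.1% to 53.2%). Epb41-215, which lacks the exon, is annotated as a processed transcript with no coding sequence, and it took 38.7% (36.2% to 40.2%). Near the 5′ end, an exon of 464 bases (chromosome 4, 132006958 to 132007421) is held by 12 of 19 transcripts. The other 7, Epb41-212 among them, lie wholly on the 3′ side of it, so no annotated transcript skips it. Its share therefore describes which transcript models reach that far, and not a splicing choice like that of the 63-base exon. Those 12 took 44.4% to 50.2% of Epb41 counts, with means of 46.5% ± 1.85 with PM2.5 and 47.4% ± 2.54 under PBS (SD, n = 4 each). For both exons the difference between groups was within the spread between libraries.

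Dmtn encodes dematin, which bundles actin at the junctions and is related to villin through its headpiece (chromosome 14, 70601263 to 70636048, minus strand). It was the lowest member per length, and its TMM-scaled CPM was 7.94, 5.96, 9.91 and 7.11 in PBS replicates 4, 10, 12 and 16. In PM2.5 replicates 9, 17, 18 and 21 it was 6.11, 11.8, 13.3 and 8.66. PM2.5 replicates 17 and 18 lay above every PBS library, and PM2.5 replicate 9 was the second lowest of all. The means were 9.96 ± 3.21 CPM with PM2.5 and 7.73 ± 1.66 under PBS (SD, n = 4 each). Its log2 fold change was 0.36 (SE 0.223, edgeR adjusted p = 0.388), and it was -0.06 without PM2.5 replicates 17 and 18.

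The widest isoform difference among the 8 genes lay in Dmtn, although it did not pass. Dmtn-208, with 1149 coding bases, took 55.7% of Dmtn counts on average, and Dmtn-210, with 1074, took 13.2%. Dmtn-210 lacks an exon of 75 bases at chr14:70617955-70618029 (GRCm38, minus strand), printed in capitals after the 15 bases that precede it in Dmtn-208, to show the stretch that divides the forms.
Dmtn exon: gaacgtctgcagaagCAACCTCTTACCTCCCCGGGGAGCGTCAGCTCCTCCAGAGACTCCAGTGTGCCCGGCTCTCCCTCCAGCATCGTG
Dmtn-210 took 0%, 11.7%, 9.62% and 5.4% of Dmtn counts in PBS replicates 4, 10, 12 and 16. It took 17.4%, 23%, 13.1% and 25.2% in PM2.5 replicates 9, 17, 18 and 21. Its share was higher in every PM2.5 library than in any PBS library, with means of 19.7% ± 5.46 and 6.67% ± 5.16 (SD, n = 4 each). The groups also separated for Epb41-207, a rare transcript, in the other direction. Its means were 0.0586% ± 0.0189 with PM2.5 and 0.111% ± 0.0148 under PBS (SD, n = 4 each). How often shares separate among all transcripts was not counted. The transcript's own log2 fold change was 1.91 (SE 0.941, edgeR adjusted p = 0.527), and the usage test of Dmtn as a gene gave an adjusted p of 1. When the skipped exon was counted over every transcript that spans it, the groups overlapped. Skipping then took 20.4%, 22.5%, 32.4% and 14.2% in the PBS libraries and 34.1%, 34.9%, 23.7% and 44.6% in the PM2.5 libraries, in the order above. PM2.5 replicate 18 fell among the PBS values, and the means were 34.3% ± 8.55 and 22.4% ± 7.56 (SD, n = 4 each). Dmtn-207, which also has 1074 coding bases, took 16.4% in PBS replicate 4, the library in which Dmtn-210 was listed at 0%.

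Add2 encodes beta adducin, which caps actin filaments and draws spectrin to them (chromosome 6, 86028681 to 86124409, plus strand). Its TMM-scaled CPM was 17.2, 9.01, 14.6 and 15.7 in PBS replicates 4, 10, 12 and 16. It was 11.4, 18.7, 16.5 and 15.7 in PM2.5 replicates 9, 17, 18 and 21. PM2.5 replicate 17 was the one exposed library above every PBS library, and PBS replicate 10 was the lowest. The means were 15.6 ± 3.09 CPM with PM2.5 and 14.1 ± 3.58 under PBS (SD, n = 4 each). The log2 fold change was 0.14 (SE 0.212, edgeR adjusted p = 0.754). It was -0.06 without PBS replicate 10 and -0.07 without PM2.5 replicates 17 and 18.

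As in Sptb, the main Add2 isoforms differ at their coding ends, and the short one led. Add2-210, with 1686 coding bases, took 67.7% of Add2 counts on average, and Add2-207, with 2175, took 14.5%. The short form runs 93 coding bases past the last shared base and the long form 582. The paired sequences show this point, with shared bases in lower case, the following bases of each form in capitals, and the stop codon of Add2-210 as its last capitals (capitals at chr6:86107987-86108082 and chr6:86109709-86109804, GRCm38, plus strand).
Add2-210: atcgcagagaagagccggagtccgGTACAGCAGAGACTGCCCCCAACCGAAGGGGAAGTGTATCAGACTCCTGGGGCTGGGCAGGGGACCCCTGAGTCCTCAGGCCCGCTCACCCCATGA
Add2-207: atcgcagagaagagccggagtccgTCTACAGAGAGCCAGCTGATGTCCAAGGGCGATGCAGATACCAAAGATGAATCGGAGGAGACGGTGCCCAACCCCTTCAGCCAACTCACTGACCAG
Transcripts with the short end made up 73.1%, 59.4%, 69.2% and 63% of those with either end in PBS replicates 4, 10, 12 and 16. The share was 73.1%, 74.8%, 71.8% and 66.5% in PM2.5 replicates 9, 17, 18 and 21. The groups overlapped, with means of 71.5% ± 3.55 with PM2.5 and 66.2% ± 6.15 under PBS (SD, n = 4 each). Add2 usage did not pass with 8 libraries (adjusted p = 1, edgeR), but it passed without PM2.5 replicates 9 and 21 (adjusted p = 0.0118). Add2-201, another long form, was listed at 0.0303% and 0% in the PM2.5 libraries that then remain, 17 and 18, and at 6.69% to 12.5% in the PBS libraries.

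**Figure D3:**
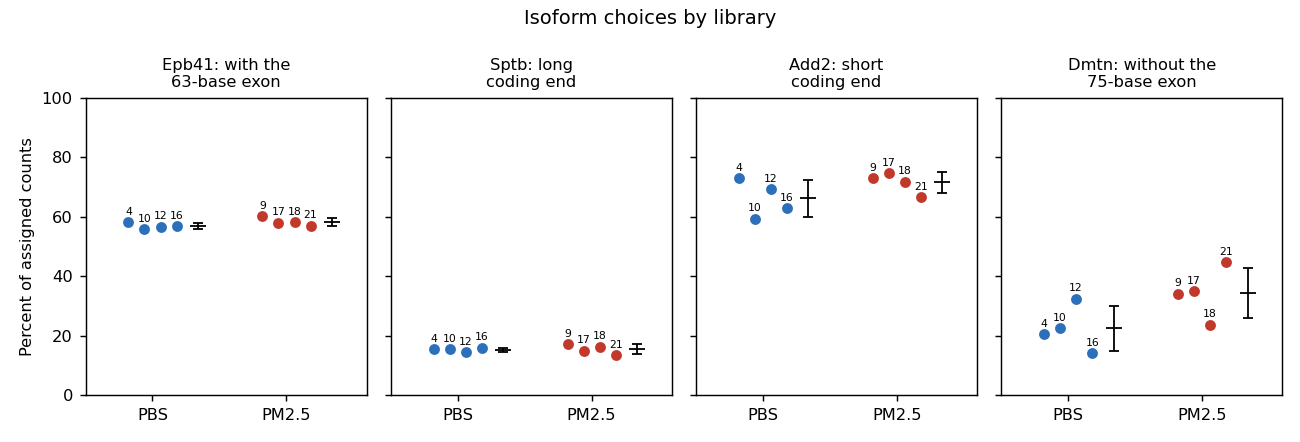
Percent of assigned counts, from 0 to 100, for 4 isoform choices in each library, with group mean and SD (n = 4 per group). The Epb41 and Sptb shares sit within a few percent of each other, while the Dmtn share spans 14.2% to 44.6% with the groups overlapping.

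Tmod1 encodes tropomodulin, which caps the slow-growing end of the short actin filaments (chromosome 4, 46038935 to 46116032, plus strand). Its TMM-scaled CPM was 18.9, 17.5, 28.9 and 17.6 in PBS replicates 4, 10, 12 and 16. In PM2.5 replicates 9, 17, 18 and 21 it was 30, 38.2, 27.2 and 34.7. PM2.5 replicates 9, 17 and 21 lay above every PBS library, and PBS replicate 12 alone reached above PM2.5 replicate 18. The means were 32.5 ± 4.9 CPM with PM2.5 and 20.7 ± 5.5 under PBS (SD, n = 4 each). The log2 fold change of 0.65 (SE 0.205) was the largest of the 8 by TMM-scaled edgeR, with an adjusted p of 0.12. It passed without PBS replicate 12 (0.85, adjusted p = 0.0434, edgeR), a fit in which 1.54% of all genes passed, and with DESeq2 on all 8 libraries (0.64, SE 0.201, adjusted p = 0.0368), where 2.02% passed. Without PM2.5 replicates 17 and 18 it was again 0.65 (adjusted p = 0.363, edgeR). Tmod1-201 held 99.7% of Tmod1 counts on average, and Tstd2, which overlaps it on the opposite strand, had counts equal to 2.52% of those of Tmod1.

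Transcripts were also tested singly. Of the 76 listed, 18 had 0 counts in every library and 40 passed the filter. Of the 40, 32 had positive log2 fold changes and 4 had an unadjusted p under 0.05, against 10.4% of all transcripts tested. None passed, and 0% of all 19836 transcripts did (edgeR, adjusted p of 0.05). In the usage test, 0 of 7 member genes with more than one tested transcript passed, against 0.126% of all genes so tested, and 0 of the 7 had an unadjusted p under 0.05, against 1.97%. By single transcript, 3 of the members' transcripts had an unadjusted usage p under 0.05 (edgeR), against 2.03% of all transcripts so tested. They were Epb41-207, Epb42-201 and Dmtn-210, with log2 usage differences of -0.64, -0.66 and 1.08. On simulated data for this comparison the transcript test recovered 1% of 2-fold and 31.3% of 4-fold changes. At 5 CPM or more it recovered 0% and 90.9%. The usage test recovered 11.2% of 4-fold shifts, and 32% of those in transcripts at 5 CPM or more, and 21.4% of its calls were false. A lack of calls therefore says little about usage, about 2-fold changes or about transcripts at low counts.

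The direction of the members' fold changes turned with the scaling. Relative to the counts of the 4 haemoglobin genes, 7 of the 8 log2 fold changes were below 0, with Tmod1 the exception at 0.10. Scaled to library totals, 6 of the 8 were below 0, and with haemoglobin removed and totals of the other genes used, 5 were. The median of the 8 was -0.30 relative to haemoglobin, -0.26 by library totals and -0.01 by totals without haemoglobin. Under the same scalings the median of all genes tested was -0.56, -0.52 and -0.30, below the members' median each time, as with TMM. A change of scaling moves all genes of a library together. The gap between the medians therefore could hardly change, and the scalings are not separate evidence for it. None of the 8 passed under any of these scalings (edgeR), while 5.69%, 4.66% and 2.19% of all genes did.

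**Figure D4:**
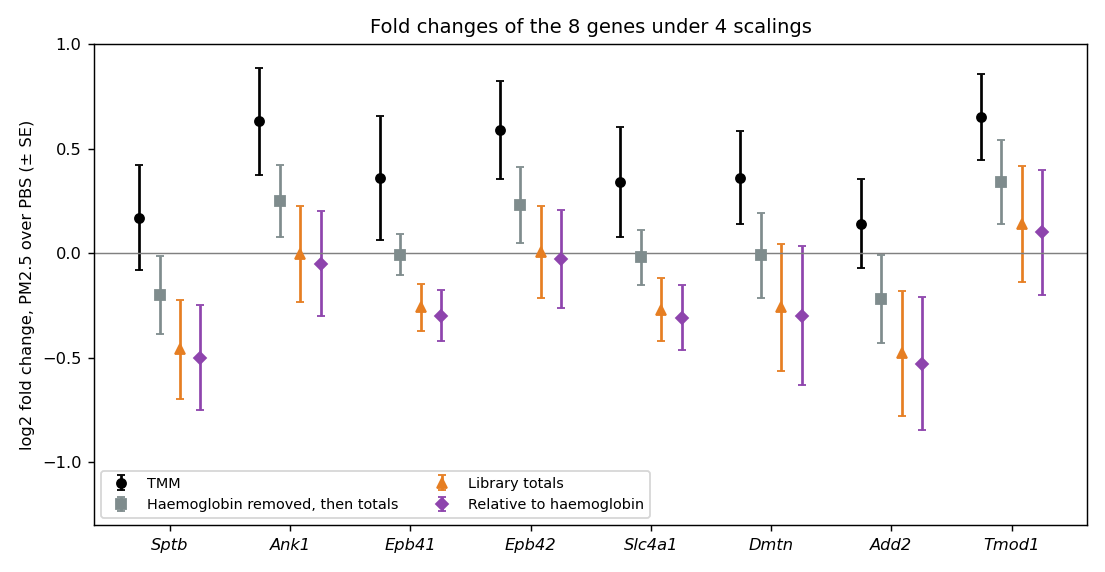
Log2 fold change of PM2.5 over PBS with its SE for each member under 4 scalings (edgeR). TMM values are above 0 for all 8 genes, and relative to haemoglobin all but Tmod1 lie below 0.

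PBS replicate 4 weighed on the haemoglobin-relative values. Epb41 was at 6415 counts per 1000000 haemoglobin counts in that library, and at 4219, 3845 and 3947 in PBS replicates 10, 12 and 16. Exposed libraries 9, 17, 18 and 21 were at 3720, 3526, 3803 and 3917. Apart from PBS replicate 4 the libraries lay within a narrow band, and the highest PM2.5 library lay above one PBS library. Slc4a1 was at 2163, 1300, 1118 and 1796 counts per 1000000 haemoglobin counts in the PBS libraries and at 1198, 1148, 1126 and 1664 in the PM2.5 libraries, again with PBS replicate 4 highest. The same library was the highest of the 8 on this scale for Sptb, Ank1, Dmtn and Add2 as well, and it had the lowest haemoglobin share, 82.4%. Epb42 peaked in PBS replicate 16, at 215, and Tmod1 in PM2.5 replicate 21, at 39.5.

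**Figure D5:**
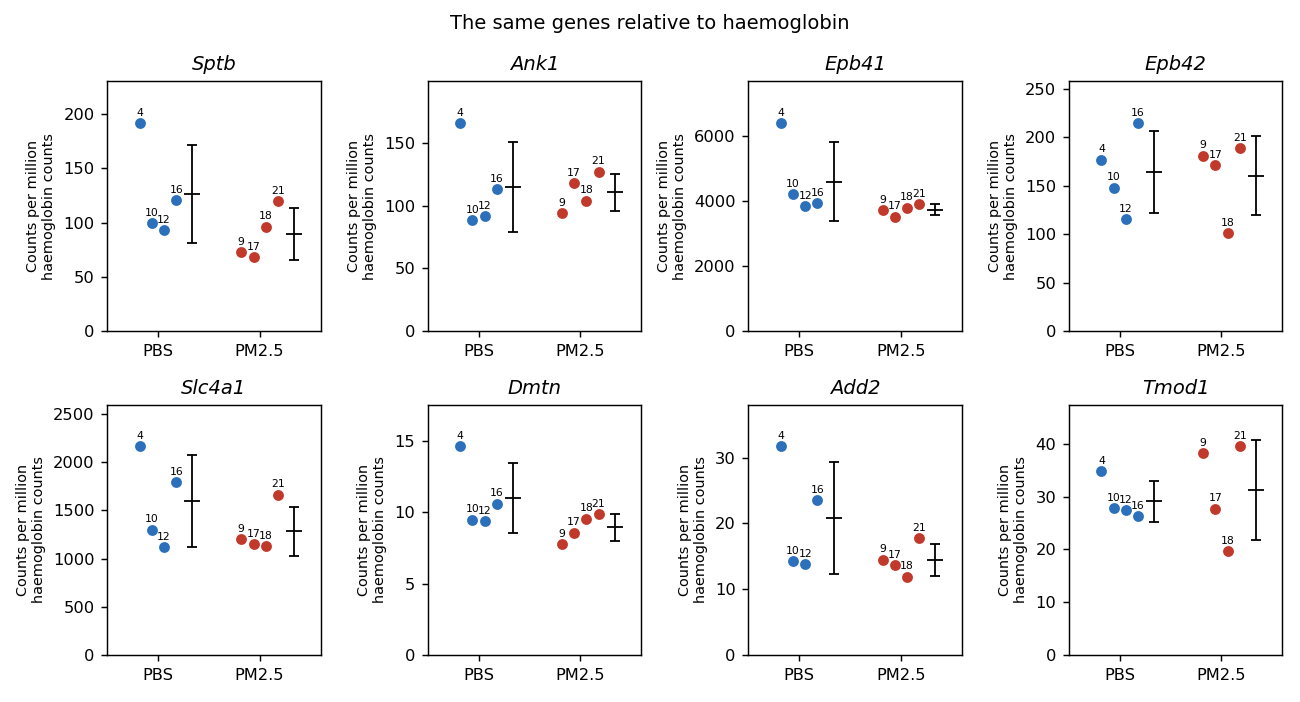
Counts per 1000000 haemoglobin counts (the 4 haemoglobin genes) of each member in each library, with group mean and SD (n = 4 per group). PBS replicate 4 is the highest library in 6 panels, and the groups overlap in all 8.

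Ratios between members do not depend on any scaling of libraries, and they showed which genes kept step. Of the 28 pairs, 1 had groups that did not overlap, a smaller share than the 8.74% among all pairs of tested genes. That pair was Sptb over Ank1, with count ratios of 1.16, 1.12, 1.02 and 1.07 in PBS replicates 4, 10, 12 and 16. In PM2.5 replicates 9, 17, 18 and 21 the ratios were 0.774, 0.575, 0.924 and 0.948. Spectrin beta counts thus exceeded ankyrin counts in every PBS library and fell short of them in every PM2.5 library. Counts are not corrected for transcript length, and by FPKM Ank1 exceeded Sptb in 8 of 8 libraries. The mean log2 ratio differed by -0.47 (-0.34 with PM2.5, SD 0.332, and 0.13 with PBS, SD 0.0817, n = 4 each), and PM2.5 replicate 17 stood farthest out.

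Other pairs kept nearly the same ratio in the groups. The mean log2 ratio of Slc4a1 over Dmtn differed by 0.00, and that of Epb41 over Dmtn by 0.02. Epb41 over Dmtn ran from 371 to 478 in counts over the 8 libraries, the narrowest spread of any pair (SD of log2, 0.115). Tmod1 moved apart from several partners, with the log2 ratio of Sptb over Tmod1 differing by -0.54 and that of Add2 over Tmod1 by -0.51, but in each of these the groups overlapped.

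The members were compared with their broadly expressed relatives per transcript length. Epb41 stood at 907 to 2767 times the FPKM of Epb41l2, its most abundant relative, and Slc4a1 at 149 to 987 times that of Slc4a7, a sodium bicarbonate cotransporter. Ank1 stood at 34.7 to 147 times Ank3, Epb42 at 17.4 to 52.5 times the transglutaminase Tgm2, and Sptb at 1.46 to 3.7 times Sptbn1, the spectrin beta chain of other cells. The actin-end proteins were different: Dmtn stood at 0.803 to 2.84 times the FPKM of Ablim1, Tmod1 at 0.683 to 2.67 times Tmod3, and Add2 at 0.447 to 0.766 times Add1, which pairs with beta adducin. Add1 thus exceeded Add2 in every library.

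Of 38 relatives, 15 passed the filter, 7 of these had positive log2 fold changes, and the median of the 15 was -0.18. Slc4a7 was the one that passed. It was at 2.07 ± 0.45 TMM-scaled CPM with PM2.5 and 4.34 ± 0.897 under PBS (SD, n = 4 each), a log2 fold change of -1.06 (SE 0.189, edgeR adjusted p = 0.0118), and its call was lost without PBS replicate 10 (-0.98, adjusted p = 0.0523) or without PM2.5 replicates 17 and 18 (-0.82, adjusted p = 0.17). Band 3 and this relative therefore had fold changes of opposite sign by TMM scaling. The ratio of Slc4a1 to Slc4a7 overlapped between the groups all the same.

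A list of 17 other proteins of the skeleton and its anchors was tested beside the members, and 17 of the 17 passed the filter. Of these, 15 had positive log2 fold changes, the median was 0.39, and 1, Gypc, passed. At an unadjusted p under 0.05 (edgeR) there were 8 of the 17, against 18% of all genes. Gypc encodes glycophorin C, the membrane anchor of protein 4.1. It was at 5.62 ± 0.668 TMM-scaled CPM with PM2.5 and 3.64 ± 0.451 under PBS (SD, n = 4 each), a log2 fold change of 0.63 (SE 0.154, edgeR adjusted p = 0.0488). That call was lost whichever single library was left out, with log2 fold changes of 0.52 to 0.69 (edgeR adjusted p = 0.0641 to 0.234). It was also lost without PM2.5 replicates 17 and 18, where the value was 0.66 (adjusted p = 0.196), and by library totals, where the log2 fold change was 0.05 (adjusted p = 0.91). The call held with DESeq2 (0.62, adjusted p = 0.00593) and by edgeR with median-ratio scaling (adjusted p = 0.049). It also held by edgeR without a count filter (adjusted p = 0.0227) and at 1 CPM or more in 4 libraries (adjusted p = 0.0454). The 2 members of the list with negative values were Add3 at -0.21 and Tpm3 at -0.01.

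Genes of red cell precursors and reticulocytes had the same sign as the members. Of 22 listed, 21 were matched and tested, 21 were positive, 0 passed (edgeR; 4 at an unadjusted p under 0.05), and the median was 0.51. By library totals that median was -0.07 and 3 of the 21 were positive. The list's summed level, which is mostly haemoglobin, ran from 561121 to 1085441 TMM-scaled CPM with PBS and from 806421 to 1427084 with PM2.5. Gata1, the erythroid transcription factor, was at 6.42 ± 1.12 CPM with PM2.5 and 4.37 ± 0.557 under PBS (SD, n = 4 each; log2 fold change 0.55, edgeR adjusted p = 0.107).

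Markers of other blood cells also moved between the groups, and their part in the members' values was not tested. Of the neutrophil list, 7 of 10 genes were tested and 5 were called higher, with summed TMM-scaled CPM of 12.9 to 25.4 with PBS and 26.8 to 52 with PM2.5. The neutrophil calls fell to 1 without PBS replicate 4, 10 or 12, without PM2.5 replicate 9 or 17, without PM2.5 replicates 17 and 18 together, and by library totals, and they were 7 without PBS replicate 16. Of the B cell list, 9 of 9 were tested and 3 were called lower, with sums of 42.6 to 69.8 and 35.8 to 46.6. The B cell calls fell to 1 without PBS replicate 4, 10 or 16 or any single PM2.5 library, and to 0 without PM2.5 replicates 17 and 18, and they were 5 by library totals. The platelet list had 11 of 11 genes positive and 0 called (0 at an unadjusted p under 0.05), with sums of 610 to 1126 and 730 to 1180, and the T cell list had 0 of 9 called (1 at an unadjusted p under 0.05), with sums of 11.8 to 21.3 and 16.4 to 21.7. Brain markers had 5 of 15 genes tested and 0 called (3 at an unadjusted p under 0.05), with sums of 13.6 to 19.8 and 15.7 to 26.8. With no filter on low counts 15 of the 15 brain markers were tested and 6 were called higher, where 313 of 18035 genes were. Without PM2.5 replicates 9 and 21 there were 4 of 9, where 108 of 11018 genes were called higher. That fit leaves replicates 17 and 18 as the whole PM2.5 group. Those libraries had already been set apart by a neuronal gene, so the 4 calls are no separate evidence. Muscle markers summed to at most 0.398 CPM in any library, and Myh4, Myh1 and Myl1 were at 0.

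By the root mean square difference of centred log2 CPM over 8 libraries, 1 of the 8 members, Slc4a1, was among the genes closest to the members' mean profile, ranking 8 of all genes tested. That profile ran from -0.57 in PBS replicate 10 to 0.48 in PM2.5 replicate 17. Usp32 (a difference of 0.0575), Dop1b (0.0692) and Vcp (0.079) were the closest, and the 10 closest genes outside the members also held Wnk1, Chmp4b, Cmas, Tut7, Wasf2, Wdr26 and Nt5c3, the last at 0.0956. Among the members Slc4a1 was nearest to their shared profile, at 0.0931, and Tmod1 farthest, at 0.288, against a median of 0.478 over all genes tested. Each member is part of the mean it is measured against, so some of this closeness is built in.

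RefSeq promoter windows (GRCm38.p6) matched 5 of the 8 members by symbol, with 7 start sites in all: Sptb, Epb41, Epb42, Add2 and Tmod1. Ank1, Slc4a1 and Dmtn had no entry. The 250 bases before each start were searched on both strands for the GATA letters AGATAA or TGATAA or AGATAG or TGATAG, and for CCNCNCCC, the core bound by factors of the KLF family, letting matches overlap. GATA letters were in 1 window each of Epb42, Epb41 and Add2, where 26.5% of 32851 windows hold them. CCNCNCCC was in the windows of Sptb, Tmod1 and Add2 and in 2 of the 3 windows of Epb41, where 45.9% of windows hold it. The windows with CCNCNCCC held 53.2% to 73.6% C plus G, against a median of 52.4% over all windows. Those without it held 43.2% and 47.6%, and the background was not matched for C plus G. The windows of Add2 (chr6:86028431-86028680, plus strand) and Sptb (chr12:76710548-76710797, minus strand) are printed 5′ to 3′ as one example with both kinds of match and one without the GATA letters, with all matches in capitals and overlapping matches run together.
Add2 upstream: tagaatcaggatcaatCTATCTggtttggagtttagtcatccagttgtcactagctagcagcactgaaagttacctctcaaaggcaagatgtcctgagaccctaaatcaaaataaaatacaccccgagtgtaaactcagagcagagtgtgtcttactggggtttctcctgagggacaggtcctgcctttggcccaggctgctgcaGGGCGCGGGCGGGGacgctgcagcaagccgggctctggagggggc
Sptb upstream: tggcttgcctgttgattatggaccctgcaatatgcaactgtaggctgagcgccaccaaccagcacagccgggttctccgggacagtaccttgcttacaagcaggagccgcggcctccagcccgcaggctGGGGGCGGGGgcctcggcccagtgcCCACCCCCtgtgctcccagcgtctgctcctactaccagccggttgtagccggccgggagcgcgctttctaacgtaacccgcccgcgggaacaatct
In the Add2 window the GATA letters lie 229 to 234 bases before the start and the CCNCNCCC matches between 32 and 45 bases before it. In the Sptb window the matches lie between 89 and 121 bases before the start. Neither printed window lies directly before the start of the leading transcript of its gene. Add2-210 (67.7% of Add2 counts) and Add2-207 (14.5%) begin at 86078057, downstream of the Add2 start at 86028681. Sptb-202 (84.7% of Sptb counts) begins at 76710023, downstream of the Sptb start at 76710547, where Sptb-201 (15.3%) begins. A match is a description of the letters, and no binding data were used here.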

How the data were processed

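Total RNA of 8 mouse buffy coats was sequenced from libraries that mark the strand, per the labels' protocols. HISAT2 2.0.1, cutadapt 1.9.1, bcl2fastq 2.17.1.14 and GRCm38 appear in the submitters' processing notes. Which tool counted the reads, and with what strand setting, is not given in the sources used here. The deposited table gives expected counts, estimated by the authors and not normalized (24.5% not whole), and FPKM values, which the authors scaled by transcript length and library fragments, per the file headers.

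Of 118783 transcripts, 116710 matched GENCODE M21 and were summed to 35944 genes. The 2073 without a match held at most 0.0532% of a library. Rounded sums entered edgeR 4.0.16 under R 4.3.3 (quasi-likelihood test, two-sided; genes kept by filterByExpr at a count of 10 and a total of 15; TMM; group as the one term), with Benjamini-Hochberg adjustment over all genes tested and a threshold of 0.05. The SE is the log2 fold change over the square root of F, an approximation. Transcripts were tested alike, and their usage with diffSpliceDGE (Simes). DESeq2 1.42.0, limma 3.58.1 on log2(FPKM + 1), other scalings and filters, and omitted libraries were alternatives. Exon shares sum the counts of transcripts by annotated exons.

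The members and lists were chosen with earlier results of these data known. Named were the 8 members, their transcripts with a mean share of 10% or more, listed genes that passed or had the smallest p, the most abundant relative of each member and the 10 genes most alike in profile. Other transcripts, Camk2a, Add3, Tpm3 and overlapping genes fall outside this rule and were named with their values in view. One gene under this rule is not reported here.

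On simulated data for this comparison (10076 genes) the gene test recovered 77% of 2-fold and 100% of 4-fold changes, with 13 false calls, 6.84% of its calls. Counts were drawn independently for each gene.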

Additional observations from a re-analysis of the deposited data

Results flagged for a closer look

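Of 44 groups of 4 libraries examined (the CPM of the 8 members and the shares of their 14 leading transcripts), 2 held a library far from the others, and chance sets apart about 1 group in 20. The Slc4a1 level in PBS replicate 10, 819 TMM-scaled CPM, lay below the other PBS libraries (1174 to 1200 CPM) by 0.931 of the group's range. The Tmod1 level in PBS replicate 12, 28.9 TMM-scaled CPM, lay above the other PBS libraries (17.5 to 18.9 CPM) by 0.881 of the range. Without PBS replicate 12 Tmod1 had a log2 fold change of 0.85 (edgeR adjusted p = 0.0434).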

How the results depend on the processing

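The signs of the members' log2 fold changes held under median-ratio scaling, TMM without haemoglobin, both count filters and DESeq2. By library totals they were -0.46 for Sptb, -0.0049 for Ank1, -0.26 for Epb41, -0.27 for Slc4a1, -0.26 for Dmtn and -0.48 for Add2, with 483 genes called (8 higher, 475 lower). With haemoglobin removed and then totals they were -0.20 for Sptb, -0.0082 for Epb41, -0.02 for Slc4a1, -0.01 for Dmtn and -0.22 for Add2, with 10 genes called higher and 216 lower. Relative to haemoglobin they were -0.50 for Sptb, -0.05 for Ank1, -0.30 for Epb41, -0.03 for Epb42, -0.31 for Slc4a1, -0.30 for Dmtn and -0.53 for Add2, with 590 genes called (9 higher, 581 lower). The members' median was -0.26, -0.01 and -0.30 under these scalings. Limma on log2(FPKM + 1) gave -0.40 for Sptb, -0.25 for Epb41, -0.03 for Epb42, -0.24 for Slc4a1, -0.18 for Dmtn and -0.31 for Add2, with a median of -0.21. With a pseudocount of 0.1 these were -0.44, -0.25, -0.03, -0.24, -0.22 and -0.36, with a median of -0.23, and either form called 0 genes. Without PM2.5 replicates 17 and 18 the values were -0.09 for Sptb, -0.01 for Epb41, -0.06 for Dmtn and -0.07 for Add2, with a median of 0.06 and 8 genes called (5 higher, 3 lower).

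Genes called numbered 624 without a filter (313 higher, 311 lower), 364 by DESeq2 and 31 to 192 with single libraries left out. Members called were 1 by DESeq2 and 0 to 1 with single libraries left out, where the median ran from 0.23 to 0.5. Sptb ranged from -0.02 (without PM2.5 replicate 18) to 0.33 and Add2 from -0.06 (without PBS replicate 10) to 0.23. Slc4a1 ranged from 0.19 to 0.46, Epb41 from 0.22 to 0.5, Dmtn from 0.2 to 0.51, Epb42 from 0.39 to 0.7, Ank1 from 0.46 to 0.78 and Tmod1 from 0.55 to 0.85. Transcript usage passed in 1 member without PM2.5 replicates 9 and 21. Over all genes it passed in 6, in 9 to 27 with single libraries left out, in 15 without PM2.5 replicates 17 and 18, in 55 without replicates 9 and 21 and in 0 at 1 CPM or more in 4 libraries, where 9 transcripts were called. The cause of these changes was not tested. No paired analysis was possible because the groups share no replicate numbers.

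Depth limits the isoform shares of Dmtn, which had 5605 counts over 8 libraries. The labels name no batch.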
